A study of Canis lupus familiaris with 4 samples.

Results

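The genes described here encode enzymes that write or erase chemical marks on histones and DNA, together with core Polycomb subunits and bromodomain proteins. They were chosen by symbol from a table of 30951 genes: the HDAC and SIRT families, those KDM, KMT, SETD, KAT and BRD genes whose symbol carries a single-digit number, DNMT1, DNMT3A, DNMT3B, the TET and EZH genes, and EP300, CREBBP, EED and SUZ12. The rule found 77 genes, each with 1 row, and used no measured value. SIRT7, KDM5D, KDM4E and KDM4F were not analysed here under their symbols. Total RNA was taken from cultured mesenchymal stromal cells (MSCs, plastic-adherent progenitors) grown out of the fat of 4 dogs, with 1 primary line and 1 library per dog. All 4 lines grew untreated in DMEM with 10% fetal bovine serum and antibiotics and were harvested after 48 h in 24-well plates. There is 1 group, so each gene was set against a reference inside its own library and the spread between dogs served as the error. The labels do not state the dogs' age, sex or breed, or the passage of the lines.

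DNA methyltransferases place methyl groups on cytosine and TET dioxygenases oxidise them. Histone lysine methyltransferases mark active promoters and enhancers (the H3K4 enzymes) or silenced regions (Polycomb repressive complex 2, PRC2), and lysine demethylases remove these marks. Acetyltransferases open chromatin, deacetylases reverse this, and bromodomain proteins bind acetylated histones. In stromal progenitors these enzymes are known to take part in the choice between bone, cartilage and fat fates.

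Reads assigned to genes numbered 7474011 to 22411268 per library, with dog 4 the shallowest. The MSC label was checked against marker genes. Of 12 MSC markers 11 lay above the typical detected gene and NT5E, which encodes CD73, was below. Among 11 measured blood cell markers 9 were not detected, including PTPRC and CD34, while CD79A was above in every dog. Summed normalized reads of the blood list, nearly all of them CD79A, ran from 5719 to 7356. Those of 8 endothelial markers ran from 165 to 402, with PECAM1 at 0 in all dogs, and those of 4 measured adipocyte markers from 208 to 357. Single markers differed more between dogs 1 to 4 than these sums. Normalized reads were 273, 57.2, 204 and 26.0 for the endothelial VWF. For the adipocyte markers they were 0, 0.92, 3.8 and 80.2 for LEP and 335, 341, 331 and 115 for PPARG. Summed reads of the 5 measured epithelial and mesothelial markers were 128, 104, 329 and 943 in dogs 1 to 4, and all 943 in dog 4 were KRT18. Their part in the values below was not tested. In such bulk samples, fewer cells of a type and less RNA per cell cannot be told apart.

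Nearly all of these genes were expressed, most of them above the typical gene. Detection required reads in 2 or more of the 4 libraries. This requirement was met by 17200 of all 30951 genes and by 13066 of the 17896 with a symbol. Reads in all 4 libraries were found for 13834 of all genes. Of the 77 members 76 met the requirement, and these 76 had reads in all 4. Of them, 50 (65.8%) exceeded the library's median detected gene by over 1 log2 unit, 2 fell short of it by over 1, and 24 did neither (limma's test with a distance of 1, Benjamini-Hochberg adjusted over all 17200 detected genes, threshold 0.05); these are called above, below and neither from here on. Across all detected genes 33.3% were above and 35.8% below, and among detected genes with a symbol 41.4% were above and 23.7% below. The median level of the members was 2.01 above the median detected gene, against -0.02 for all detected genes and 0.79 for those with a symbol. Together the members held 0.50% ± 0.023 of the reads (SD, n = 4 dogs), from 0.480% in dog 1 to 0.524% in dog 2. These counts hang on the reference. With the median taken over genes with reads in all 4 libraries, which lies 0.82 log2 units higher, 35 members were above and 6 below, and all 35 belonged to the 50. The 15 that were then neither were BRD8, HDAC1, HDAC3, HDAC6, HDAC9, KAT2A, KAT2B, KAT6B, KDM1B, KDM4C, KMT5A, SETD1A, SETD3, SUZ12 and TET3. Against that reference 21.7% of all detected genes were above and 43.5% below.

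Levels below are log2 differences from the median detected gene, as mean ± SD over 4 dogs. Normalized reads are reads divided by the size factor of the library, and 4 values in a row are dogs 1 to 4. Neither was corrected for transcript length, and long genes collect more reads, so the order of different genes is an order of reads and not of molecules.

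**Figure D1:**
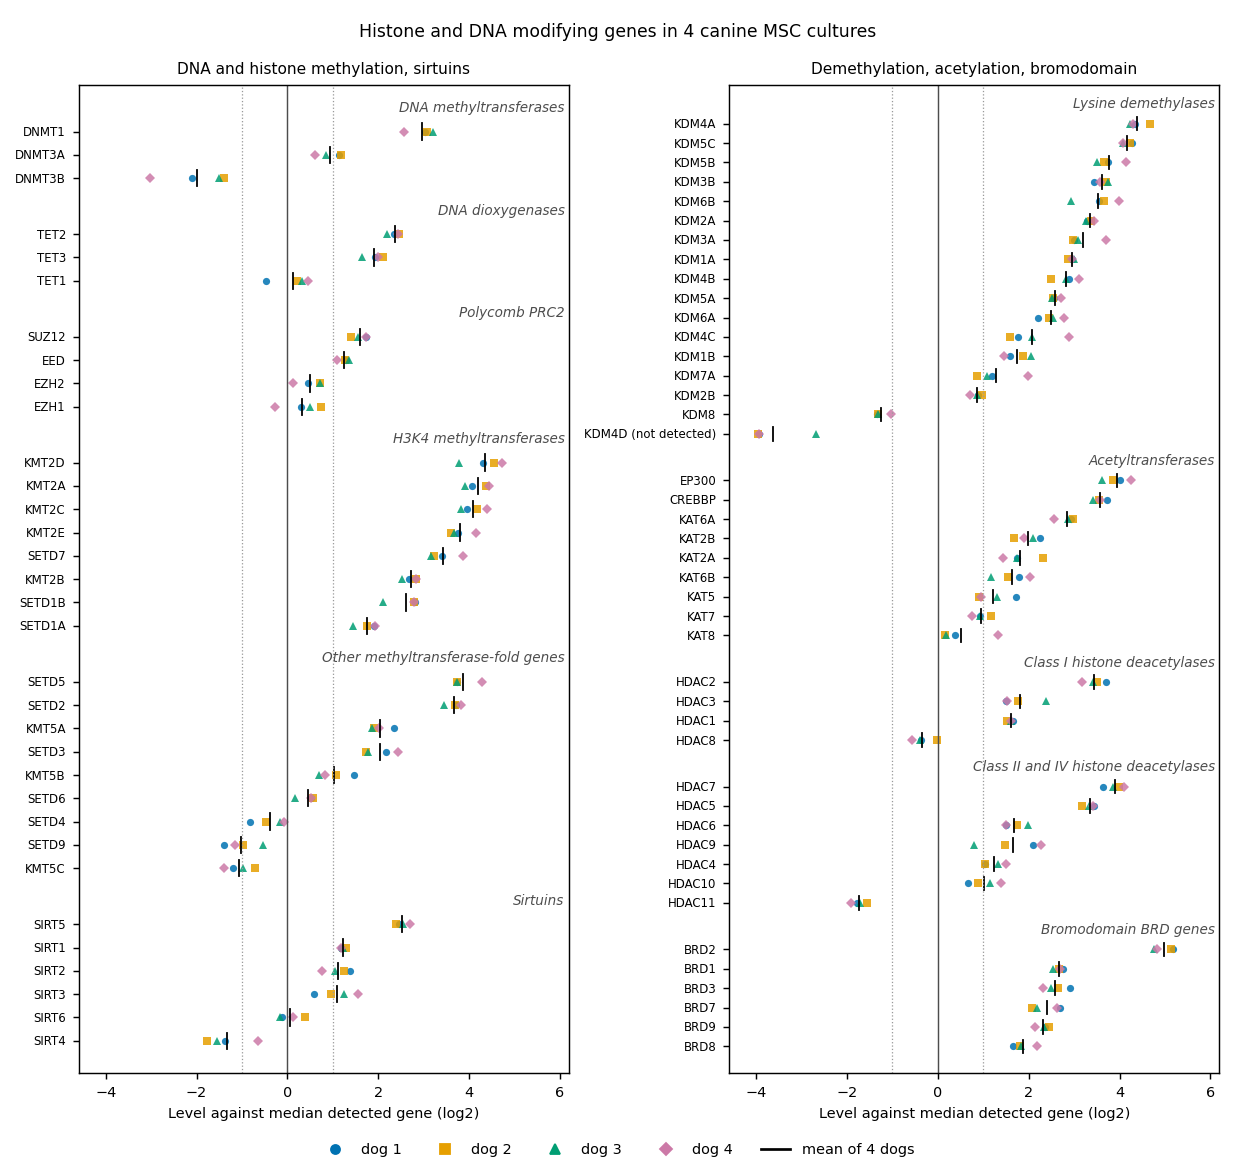
Level of the members described here in each dog (log2 difference from the library's median detected gene, x axis), grouped by role, with a symbol per dog and a bar at the mean of 4 dogs. Dotted lines mark the distance of 1 log2 unit. BRD2 stood highest at 4.98, all 8 H3K4 methyltransferase genes lay to the right, and DNMT3B was the lowest detected member at -2.0.

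The 3 DNA methyltransferase genes gave 3 different calls, 1 above, 1 neither and 1 below. DNMT1, the maintenance enzyme that copies methylation onto new DNA strands, was above at 2.97 ± 0.28, with 1269, 1344, 1462 and 913 normalized reads (limma, Benjamini-Hochberg adjusted p = 3.44e-07). It was lowest in dog 4 and the other 3 dogs lay close together. DNMT3A, a de novo methyltransferase, was neither at 0.94 ± 0.27, with 325, 345, 270.2 and 221 normalized reads. DNMT3B, the other de novo enzyme, which is typical of pluripotent cells, was below at -2.0 ± 0.75 (limma, Benjamini-Hochberg adjusted p = 0.00776). Its raw reads were 27, 46, 40 and 2. Per unit of pooled size factor, dogs 1 to 3 had 7.39 times the DNMT3B reads of dog 4, with a 95% exact interval of 2.00 to 61.8 that covers counting error only. In RefSeq (assembly UU_Cfam_GSD_1.0) the span of DNMT3B overlaps that of COMMD7.

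Of the TET dioxygenases, TET2 and TET3 were above and TET1 was neither. TET2 stood at 2.36 ± 0.12 with 785, 865, 719 and 837 normalized reads, and no dog differed from another by more than 1.2-fold. TET3 stood at 1.92 ± 0.19. TET1, the family member best known from pluripotent cells, had 94.8, 165, 181 and 197 normalized reads and a level of 0.13 ± 0.41. Dog 1 was low for TET1 and the other dogs were within a narrow range.

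The PRC2 core sat nearer to the median gene than most members. SUZ12, the scaffold of the complex, was the only one of 4 core genes above, at 1.6 ± 0.16 with 508, 404, 451 and 505 normalized reads. Against the median of genes with reads in all 4 libraries it stood at 0.78 and was neither, as were the other 3 core genes. EED, which binds the mark that the complex makes, was neither at 1.25 ± 0.11 (limma, Benjamini-Hochberg adjusted p = 0.0560), but it was above without dog 4 (1.30, adjusted p = 0.0288). The catalytic subunit EZH2, known to be abundant in dividing cells, had 198, 244, 243 and 152 normalized reads and a level of 0.50 ± 0.28. Its paralog EZH1, known from resting cells, had 175, 248, 207 and 111 and a level of 0.31 ± 0.44. Both had their lowest value in dog 4, and both lay under the median of genes with reads in all 4 libraries, at -0.32 and -0.51. Of 7 measured accessory genes of PRC2, the histone-binding genes RBBP7 (3.81 ± 0.23) and RBBP4 (3.22 ± 0.25) and the cofactor AEBP2 were above. The targeting subunits JARID2, PHF1, PHF19 and MTF2 were neither, and MTF2 was lowest at -0.31 ± 0.35.

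All 8 genes grouped as H3K4 methyltransferases were above the median detected gene. KMT2D, an enhancer enzyme, had 3127, 3768, 2179 and 4172 normalized reads and a level of 4.34 ± 0.42 (limma, Benjamini-Hochberg adjusted p = 3.12e-08). KMT2A followed with 2612, 3294, 2403 and 3426 (4.19 ± 0.25) and KMT2C with 2425, 2873, 2265 and 3294 (4.08 ± 0.25). In all 3 genes dog 3 had the lowest value and dog 4 the highest. KMT2E, a family member with little known catalytic activity, stood at 3.79 ± 0.25, SETD7 at 3.42 ± 0.32 and KMT2B at 2.72 ± 0.15. The promoter enzymes SETD1B and SETD1A stood at 2.62 ± 0.35 and 1.76 ± 0.22. SETD1B had 1096, 1089, 672 and 1071 normalized reads, so dog 3 stood apart below 3 nearly equal dogs. Of 8 partner subunits of these complexes, some shared and some particular to 1 kind of complex, 7 were above, led by WDR5 (3.19 ± 0.34) and NCOA6 (2.69 ± 0.23), and DPY30 was neither at 0.41 ± 0.28.

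The remaining SET-domain and H4K20 genes were mixed, with 4 of 9 above, none below and 5 neither. SETD5, linked to transcription and chromatin control in development, had 2088, 2139, 2120.2 and 3066 normalized reads (3.87 ± 0.27). Dogs 1 to 3 were nearly equal and dog 4 stood apart above them. SETD2, the enzyme of the H3K36 trimethyl mark on transcribed genes, stood at 3.67 ± 0.16. The H4K20 monomethyltransferase KMT5A (2.03 ± 0.22) and the actin histidine methyltransferase SETD3 (2.03 ± 0.34) were also above. The H4K20 enzymes KMT5B (1.02 ± 0.34) and KMT5C (-1.07 ± 0.29), and SETD6 (0.44 ± 0.18), SETD4 (-0.39 ± 0.34) and SETD9 (-1.02 ± 0.36), were neither. Among 19 other histone methyltransferase genes outside the families counted here, 12 were above, 2 below and 5 neither. ASH1L (4.33 ± 0.33) and NSD1 (3.70 ± 0.09) led them and PRDM1 (-3.40 ± 0.10) was lowest. PRDM1 had 2, 2, 1 and 1 raw reads. So few reads lie at the floor of the log2 scale, which shrinks differences, so its SD does not show a steady level.

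Lysine demethylases formed the largest role group, and 13 of its 17 genes were above, 3 neither and 1 not detected. KDM4A, which acts on H3K9 and H3K36, had 3211, 4071, 3020.4 and 3114 normalized reads and a level of 4.39 ± 0.19 (limma, Benjamini-Hochberg adjusted p = 5.13e-09). The H3K4 demethylases KDM5C and KDM5B stood at 4.17 ± 0.11 and 3.77 ± 0.27, and KDM5A at 2.58 ± 0.09. The H3K9 demethylases KDM3B (3.61 ± 0.14) and KDM3A (3.19 ± 0.34) were above, as were the H3K36 demethylase KDM2A (3.35 ± 0.08), the flavin-dependent KDM1A (2.94 ± 0.05) and KDM1B (1.74 ± 0.26). KDM3A had 1256, 1248, 1343 and 2041 normalized reads, with dog 4 apart above the other 3.

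The H3K27 demethylases, which undo the Polycomb mark, were both above. KDM6B, which is known to be inducible by inflammatory signals, had 1823, 2000.5, 1209 and 2507 normalized reads (3.53 ± 0.44). Dog 3 was lowest and dog 4 highest, 2.07-fold apart. KDM6A had 716, 862, 917 and 1067 (2.5 ± 0.23). KDM4B (2.83 ± 0.25) and KDM4C (2.08 ± 0.58), paralogs of KDM4A, were above too, and KDM4C had 516, 461, 661 and 1154 normalized reads with the highest value in dog 4. KDM7A had 343, 270.4, 319.8 and 609 and was neither (1.28 ± 0.49), as were KDM2B (0.85 ± 0.11) and KDM8 (-1.25 ± 0.15). KDM4D, known for its expression in testis, was read 9 times in dog 3 and not at all in dogs 1, 2 and 4, where a count of 0 allows up to 3 reads per library (counting error only).

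Among acetyltransferases 6 of 9 genes were above and 3 neither. The coactivators EP300 and CREBBP, which acetylate enhancers, led with 2539, 2329, 1951 and 2997 normalized reads for EP300 (3.94 ± 0.27) and 2077, 1861, 1694 and 1869 for CREBBP (3.56 ± 0.13). Both had their lowest value in dog 3. The MYST-family enzymes KAT6A (2.83 ± 0.18) and KAT6B (1.63 ± 0.37) and the SAGA-type enzymes KAT2B (1.98 ± 0.25) and KAT2A (1.81 ± 0.37) were above. KAT5 (1.22 ± 0.38), KAT7 (0.95 ± 0.17) and KAT8 (0.51 ± 0.55) were neither. KAT8, the H4K16 acetyltransferase, had 185, 159.6, 161 and 377 normalized reads, with dog 4 above the other 3. Of 27 subunits of acetyltransferase complexes and related enzymes 16 were above and 11 neither, led by TRRAP (4.46 ± 0.07) and KANSL3 (3.44 ± 0.04), with JADE3 lowest at -1.17 ± 0.30.

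Classical histone deacetylases covered a wide range. In class I, HDAC2, HDAC3 and HDAC1 were above and HDAC8 was neither. HDAC2 had 2031, 1815, 1688 and 1409.6 normalized reads (3.44 ± 0.22), and HDAC1 had 478, 442, 475 and 462 (1.6 ± 0.06). HDAC3, the partner of the NCoR corepressors, had 431, 528, 824 and 438 (1.80 ± 0.41) with the highest value in dog 3, and its RefSeq span overlaps that of RELL2. HDAC8 stood at -0.34 ± 0.24. Of 19 scaffold genes of the NuRD, SIN3, CoREST and NCoR complexes, through which class I enzymes and KDM1A act, 15 were above and 4 neither. The remodellers CHD3 (4.90 ± 0.10) and CHD4 (4.86 ± 0.07) led them and RCOR2 was lowest at -1.37 ± 0.33.

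Of the 7 class II and class IV genes, 4 were above, 2 neither and 1 below. HDAC7, known for roles in vascular and mesenchymal cells, had 1962, 2553, 2305 and 2687 normalized reads (3.90 ± 0.20). HDAC5 stood at 3.34 ± 0.12 and the tubulin deacetylase HDAC6 at 1.68 ± 0.23. HDAC9, a regulator of muscle and fat differentiation, had 657, 427, 261 and 748 normalized reads (1.66 ± 0.67). Dogs 1 and 4 were high and dog 3 was low for HDAC9, and its call was lost without dog 1 (1.52, limma, Benjamini-Hochberg adjusted p = 0.0605). HDAC4 (1.23 ± 0.23) and HDAC10 (1.02 ± 0.31), a polyamine deacetylase, were neither. The class IV gene HDAC11 was below at -1.74 ± 0.15, with 28.0, 36.0, 30.5 and 23.9 normalized reads (limma, Benjamini-Hochberg adjusted p = 0.00702). It was low in all 4 dogs, with levels of -1.78, -1.56, -1.72 and -1.92. Its raw reads were 39, 39, 32 and 11, few enough for the log2 scale to shrink differences. Its normalized reads differed by up to 1.51-fold.

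Of 6 measured sirtuins, the NAD-dependent deacylases, 1 was above and 5 were neither. SIRT5, a mitochondrial desuccinylase, had 854, 822, 917 and 1006 normalized reads (2.52 ± 0.13). The nuclear SIRT1 had 339, 371, 356 and 340.5 (1.22 ± 0.05, limma, Benjamini-Hochberg adjusted p = 0.0811) and the smallest SD of all detected members. SIRT2 (1.1 ± 0.27) and the mitochondrial SIRT3 (1.08 ± 0.41) lay near the distance of 1, and SIRT6 (0.06 ± 0.26) at the median. SIRT4, also mitochondrial, stood at -1.34 ± 0.49 with 42.4, 28.6, 36.3 and 82.4 normalized reads. It was below without dog 4 (-1.57, limma, Benjamini-Hochberg adjusted p = 0.0261).

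The 6 BRD genes described here were each above. BRD2, a BET protein that binds acetylated histones at active genes, was the highest member, with 5750.2, 5632, 4347 and 4489 normalized reads (4.98 ± 0.21, limma, Benjamini-Hochberg adjusted p = 4.00e-09). BRD3, also a BET protein, had 1170.2, 982, 882 and 772 (2.59 ± 0.25), highest in dog 1 and lowest in dog 4. BRD1, a scaffold of acetyltransferase complexes, stood at 2.67 ± 0.09. BRD7 (2.40 ± 0.31) and BRD9 (2.32 ± 0.14) belong to SWI/SNF remodelling complexes and BRD8 (1.87 ± 0.22) to the KAT5 complex. Of 19 SWI/SNF genes 14 were above, led by ARID1B (4.08 ± 0.33) and SMARCC1 (3.75 ± 0.09). SMARCD3 and SMARCE1 were neither, DPF1 was below (-2.49 ± 0.68), and DPF3 and ACTL6B, which are known from muscle and neurons, were not detected.

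In PRC1, the second Polycomb complex, 8 of 17 were above and 9 neither, with PHC2 (4.44 ± 0.05) and PHC3 (3.00 ± 0.54) highest and CBX8 lowest (-1.40 ± 0.57). Of 13 cofactors and readers of DNA methylation 11 were above and 2 neither. MAT2A, which makes the methyl donor, stood at 3.81 ± 0.08, IDH2 at 3.52 ± 0.57, and IDH1 was lowest at 0.55 ± 0.59. UHRF1, which guides DNMT1 to replicated DNA, stood at 1.98 ± 0.36. Of 9 arginine methyltransferases 6 were above, led by PRMT1 (3.83 ± 0.18) and CARM1 (3.09 ± 0.21), PRMT9 and PRMT6 (-0.22 ± 0.23) were neither, and PRMT8 had 0 reads. Over all 9 partner lists, 92 of 138 measured genes were above, 3 below, 40 neither and 3 not detected, with a median level of 1.80 among the detected. Of the 135 detected partners 68.15% were above, against 65.8% of detected members and 41.4% of detected genes with a symbol. The members' share above was thus not particular to them.

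The members varied between the 4 dogs about as little as genes called above. The median SD was 0.25 log2 units, against 0.36 for all detected genes and 0.24 for genes called above. Set against the SD usual for genes of the same level (limma's trended prior), the median ratio was 0.827 for the members and 0.925 for all detected genes. No member passed the test of variability (F test against the trended prior, Benjamini-Hochberg, smallest adjusted p = 0.850), nor did any detected gene (0%). Even KRT18, with an SD of 2.58, did not pass, so not passing does not show that a member was steady. At an unadjusted p under 0.05 there were 2 members, HDAC9 and KDM4C, against 5.2% of all detected genes and 6.81% of genes called above. The highest and lowest normalized reads of a member differed by a median of 1.5-fold, and 11 members exceeded 2-fold. These were DNMT3B (9.79-fold, from 2 reads in dog 4), SIRT4, HDAC9, KDM4C, KAT8, KDM7A, EZH1, SETD9, TET1, KDM6B and SIRT3. At the other end, 6 members had an SD under 0.1: SIRT1, KDM1A, HDAC1, KDM2A, BRD1 and KDM5A. The shares of all detected genes past 2-fold or under this SD were not computed, so these counts only describe the members. HDAC1 differed by no more than 1.08-fold and KDM1A by 1.09-fold between any 2 dogs.

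**Figure D2:**
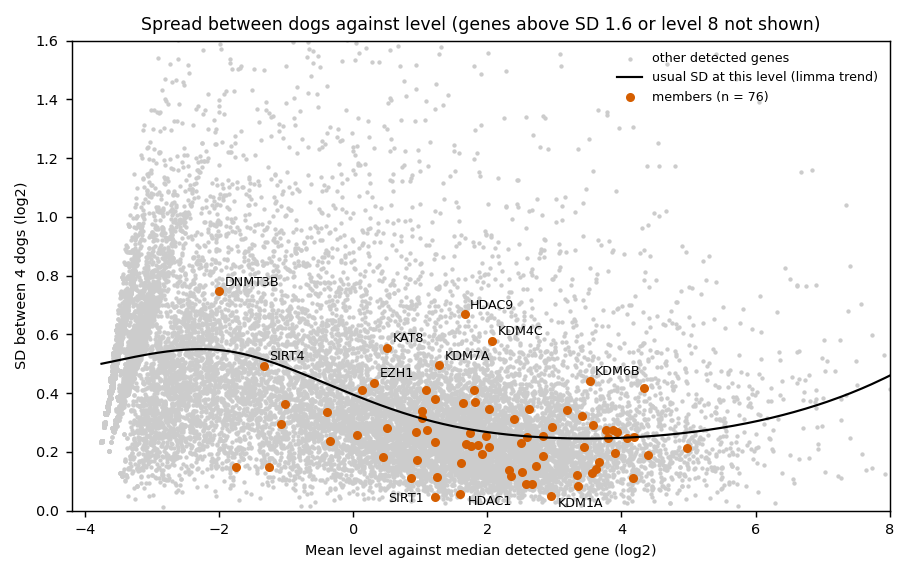
SD between the 4 dogs (y axis, log2) against mean level (x axis, log2 difference from the median detected gene) for all detected genes in grey and the 76 detected members in orange, with the usual SD at each level as a line. DNMT3B (0.75), HDAC9 (0.67) and KDM4C (0.58) had the largest SDs among detected members, and SIRT1, HDAC1 and KDM1A lay near 0.05.

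Which dog was high or low was not evenly spread over the members. The highest of the 4 values was in dogs 1 to 4 for 17, 18, 8 and 33 of 76 members (22.4%, 23.7%, 10.5% and 43.4%). Over all detected genes these shares were 22.4%, 17.4%, 23.4% and 36.8%, and over genes called above 29.4%, 14.9%, 22.4% and 33.3%. Members thus had their highest value in dog 3 at a lower share, and in dogs 2 and 4 at a higher share, than all detected genes. Of the 50 members called above, 14, 6, 6 and 24 were highest in dogs 1 to 4. Set against genes called above, these members were again highest less often in dog 3 and more often in dog 4. In dog 2 they were not highest more often than genes called above (6 of 50 against 14.9%). The share highest in dog 2 was not recomputed under other scalings. Under 4 other scalings 27 to 32 members were highest in dog 4. Of these, the deposited values without centring and log2 normalized reads rank the dogs alike within each gene, so they give the same counts. With trimmed-mean scaling these were 35.5%, against 32.0% of all detected genes scaled in the same way, and with quantile normalization 39.5% against 30.5%. In dog 3 it was 8 or 9 members, at most 11.8%, against 24.4% to 26.6% of all detected genes. The lowest value was in dogs 1 to 4 for 12, 17, 27 and 20 members (15.8%, 22.4%, 35.5% and 26.3%). All detected genes gave 19.7%, 20.3%, 31.1% and 28.8%, and genes called above 16.8%, 18.7%, 29.7% and 34.8%. These shares are a description with no test, since each dog is 1 library, and dog 4 is also the shallowest library. In 5 members, SETD5, KDM8, KDM3A, SETD1B and SETD6, 1 library stood apart from the other 3 by Dixon's gap for 4 values, as in 5.36% of all detected genes.

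**Figure D3:**
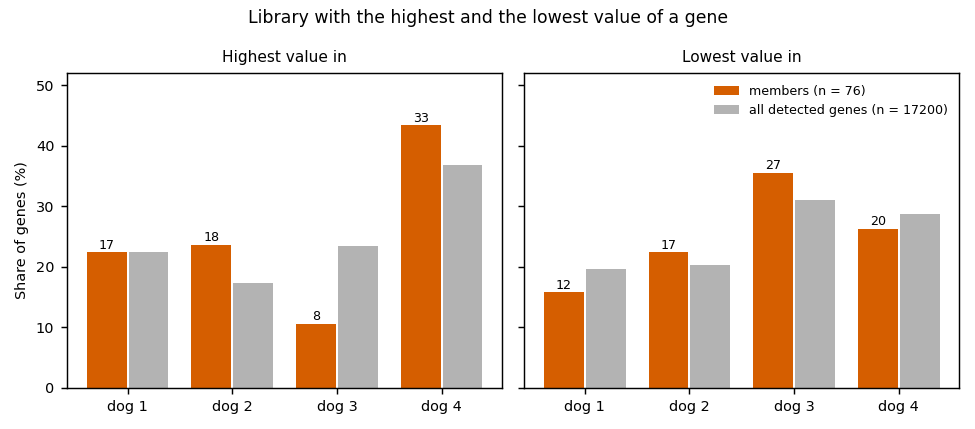
Share of genes (y axis, %) whose highest (left) or lowest (right) value lay in each dog, for the 76 detected members (orange, with their number) and all detected genes (grey). Dog 3 held the highest value of 8 members, 10.5% against 23.4% of all detected genes.

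Role groups differed in the dog that stood out. Of the 8 H3K4 methyltransferase genes, 7 had their lowest value in dog 3 (31.1% of all detected genes did) and 7 their highest in dog 4 (36.8%). Under the other scalings tried the counts were 5 to 7 of 8 and 4 to 6 of 8. The group's mean deviation from each gene's own mean was -0.31 log2 units in dog 3 and 0.27 in dog 4. Of 16 detected lysine demethylases, 10 were highest in dog 4 (9 or 10 over the other scalings), among them KDM3A, KDM4B, KDM4C, KDM5B, KDM6A, KDM6B and KDM7A. Of 19 NuRD, SIN3, CoREST and NCoR scaffold genes, 12 were lowest in dog 3 and 6 highest in dog 4. The 8 partner subunits of the H3K4 complexes did not share the pattern of the H3K4 enzymes. Of these subunits 4 were lowest in dog 3 and 2 highest in dog 4, with mean deviations of -0.02 and -0.04 there.

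DNA methyltransferases and most core genes of PRC2 had their lowest values in dog 4 instead. All 3 DNMT genes and EZH1, EZH2 and EED were lowest there, against 28.8% of all detected genes, and the counts were 3 of 3 and 3 of 4 under each scaling tried. SUZ12 was not, with its lowest value in dog 2. The mean deviation in dog 4 was -0.59 for the DNMT genes and -0.25 for the PRC2 core. DNMT3B (-1.02), with 2 reads there, weighed most in the DNMT mean, beside DNMT1 (-0.41) and DNMT3A (-0.34). In the PRC2 core the deviations were -0.60 for EZH1, -0.38 for EZH2, -0.16 for EED and 0.13 for SUZ12. The 7 measured accessory genes of PRC2 did not share this. Of them 3 were highest and 2 lowest in dog 4, with a mean deviation of 0.09 there. DNMT1 and EZH2 are known to be transcribed mainly in dividing cells, so genes of S phase and the cell cycle are given beside them. Of 19 such genes, 15 were lowest in dog 4 and 15 highest in dog 3. Their mean deviations were -0.04, 0.07, 0.44 and -0.47 in dogs 1 to 4, and the replication gene MCM4 had 1426, 1846, 2617 and 893 normalized reads. DNMT1 was likewise highest in dog 3, while EZH2 was about equally high in dogs 2 and 3. DNMT3A, DNMT3B and EZH1 were highest in dog 2. Of the 12 MSC markers 8 were also lowest in dog 4, with a mean deviation of -0.22 over the list, among them VIM (-0.78), PDGFRA (-0.87) and COL1A1 (-0.59). The list did not move as one, since 3 markers were highest in dog 4. These were ITGB1 (0.70), DCN (0.40) and ENG (0.19), and THY1 was also over its mean there (0.20). The part of cell division, of cell makeup or of depth in these differences was not tested, and no member's spread passed the F test.

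**Figure D4:**
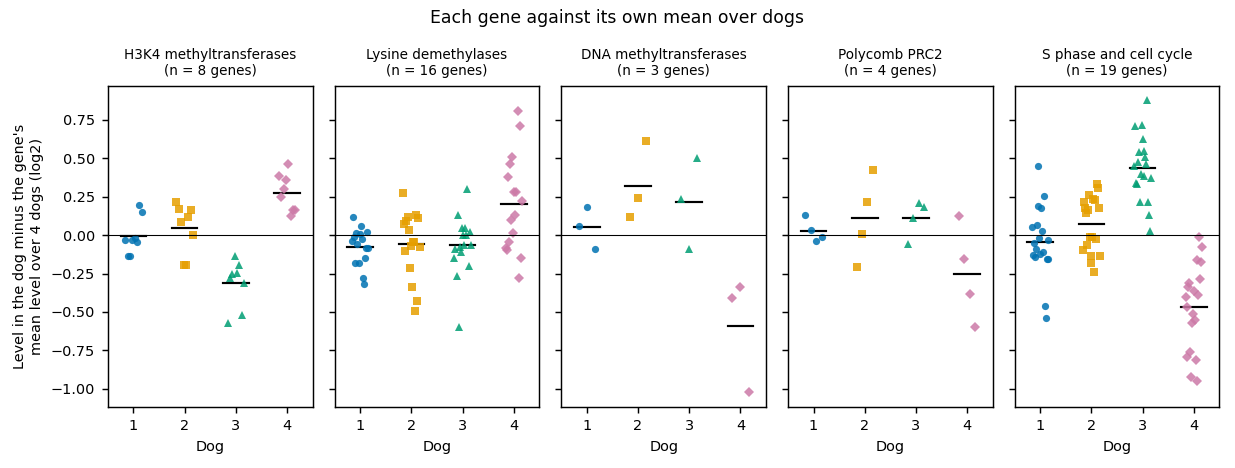
Level of each gene in each dog minus its mean over the 4 dogs (y axis, log2), for 4 role groups and the S phase and cell cycle list, with 1 point per gene and a bar at the group mean. H3K4 methyltransferases were low in dog 3 (mean -0.31) and high in dog 4 (0.27). The means of DNMT genes (-0.59), the PRC2 core (-0.25) and cell cycle genes (-0.47) were low in dog 4. The DNMT mean includes DNMT3B (-1.02), which had 2 reads there, and SUZ12 of PRC2 was not low (0.13).

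Differences between related genes can be compared between dogs without a length correction where both have many reads, since the lengths then nearly cancel. They were taken on the deposited log2 values, which shrink differences where reads are few, so there they understate the ratio of reads. Over 10 pairs set for this purpose, the log2 difference within a dog had an SD between dogs of 0.17 to 0.59. DNMT3A to DNMT3B varied most, with differences of 3.22, 2.58, 2.35 and 3.63. These are shrunk by the few reads of DNMT3B, and the value of dog 4 rests on 2 DNMT3B reads. KAT2A to KAT2B was -0.52, 0.65, -0.36 and -0.46, so these paralogs were in the opposite order of reads in dog 2 alone. TET3 to TET1 was 2.40, 1.90, 1.33 and 1.53, highest in dog 1, where TET1 was low. KDM6B to KDM6A was 1.32, 1.2, 0.39 and 1.22, with dog 3 low and the other 3 close together.

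On the deposited values EZH2 to EZH1 had the smallest SD of these pairs, with differences of 0.16, -0.03, 0.21 and 0.40 (SD 0.17). Both genes had few enough reads for these differences to be shrunk. This pair is therefore not shown to have the steadiest ratio of reads. The EZH2 to EZH1 difference moved less between dogs than EZH1 itself (SD 0.44). KDM5B to KDM5A (SD 0.19), EP300 to CREBBP (SD 0.21), KMT2D to KMT2C (SD 0.21), HDAC1 to HDAC2 (SD 0.22) and DNMT1 to DNMT3A (SD 0.22) were similar. EP300 to CREBBP was 0.29, 0.32, 0.20 and 0.68, and KMT2D to KMT2C was 0.36, 0.39, -0.06 and 0.34, with dog 4 apart in the first and dog 3 in the second. HDAC1 to HDAC2 was -2.04, -1.99, -1.78 and -1.57.

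**Figure D5:**
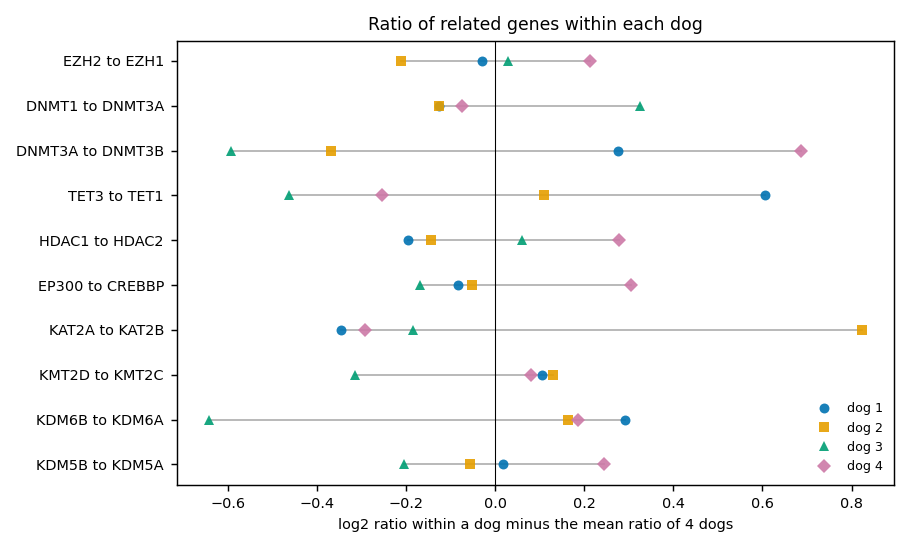
Difference between the deposited log2 values of 2 related genes within each dog, minus its mean over the 4 dogs (x axis, labelled log2 ratio). The y axis gives the 10 pairs, with a symbol per dog. Where reads are few the difference is smaller than the log2 ratio of reads. KAT2A to KAT2B lay apart in dog 2 (difference 0.65 against -0.36 to -0.52) and KDM6B to KDM6A in dog 3 (0.39 against 1.2 to 1.32).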

How the data were processed

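The authors deposited 1 table of log2 values, which the file's name gives as variance-stabilized counts, with 1 column per library. The tools named, per the submitters' processing notes, are STAR 2.7.11a, Trimmomatic 0.39, FastQC 0.12.1 and DESeq2, with build CanFam3.1. How reads were counted, with which strand setting and annotation, is not given in the sources used here. The RefSeq spans (UU_Cfam_GSD_1.0) of 15 of the 76 members with an entry overlap another coding gene, so the reads of BRD7, BRD8, DNMT3B, EED, HDAC3, KAT5, KAT8, KDM2A, KDM2B, KDM3B, KMT2E, SETD9, SIRT1, SIRT2 and SIRT6 are uncertain. Per the labels' protocols, libraries were made from 10 ng of total RNA after ribosomal RNA depletion with a stranded kit. Columns were matched to samples by dog number.

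The transformation was inverted from the value of 0 reads (3.3652). Every non-zero value came out whole within 0.01 reads. Totals were 22411268, 16246965, 15203607 and 7474011 reads for dogs 1 to 4 and size factors 1.39, 1.08, 1.05 and 0.461. Reads served for depth and normalized reads. Tests ran on the log2 values, centred on the median of genes with reads in at least 2 libraries, using a trended prior and a distance of 1 in limma 3.58.1 under R 4.3.3. They were tested on simulated data. Figures and tables used numpy 2.4.6, pandas 2.3.3 and matplotlib 3.10.9. Members, lists and tests were chosen with earlier results of these data known. Counts cover all members, and 1 member is not reported here by itself. Values are given for the others, including in each role group the 3 highest and 2 lowest, those standing apart in 1 dog, the 8 largest SDs and 10 pairs, and for the 2 highest and the lowest of each partner list. Dogs are separate per the library names, so p-values use the spread between dogs, cultures and libraries together. Alternatives covered the reference, distance, scaling, log scale, filter, prior and leaving out each dog.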

Additional observations from a re-analysis of the deposited data

Results flagged for a closer look

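For 5 of 76 detected members 1 library stood apart from the other 3, with a gap to the nearest value past Dixon's limit for 4 values, given as a share of the gene's range. The same held for 5.36% of all detected genes, and chance flags about 1 gene in 20. Dog 4 was high for SETD5 (gap of 0.976 of the range), KDM8 (0.927) and KDM3A (0.856). Dog 3 was low for SETD1B (0.954) and SETD6 (0.851). The sizes were small: the highest and lowest normalized reads differed by 1.64-fold for KDM3A, 1.63-fold for SETD1B, 1.47-fold for SETD5, 1.36-fold for SETD6 and 1.34-fold for KDM8.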

How the results depend on the processing

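Of the 76 tested members, 37 kept their direction and call under all 16 alternatives. The number above was 50 and stayed between 35 and 65, and 49 to 51 when 1 dog was left out. The number below was 2, and it was 6 with either other reference (genes with reads in all 4 libraries, or detected genes with a symbol), 6 with a distance of 0, 0 with a distance of 2, and 2 to 3 when 1 dog was left out. With the reference of genes with reads in all 4 libraries, the levels of EZH2 (-0.32), SETD6 (-0.38), TET1 (-0.70), EZH1 (-0.51), KAT8 (-0.32) and SIRT6 (-0.77) turned negative, and with that of detected genes with a symbol they were -0.31, -0.37, -0.68, -0.50, -0.30 and -0.75, since both medians lie higher. None of the 6 was called either way. With 1 dog left out, the level of SIRT6 ran from -0.0567 (without dog 2) to 0.127. Either of these references ended the call above of the same 15 members, HDAC1, HDAC3, SUZ12 and TET3 among them. The count past the variability test was 0 under each alternative run. Some of the counts of genes highest or lowest in a dog were recomputed under 4 scalings chosen after seeing the data. Uncentred deposited values and log2 normalized reads rank the dogs alike within each gene, so these are not separate checks. H3K4 methyltransferases highest in dog 4 went from 7 to 4 under quantile normalization and under trimmed-mean scaling. Levels per kilobase were not run, because no transcript lengths were used here. No paired analysis was possible because there is only 1 group. Dog 4 has the fewest reads, so DNMT3B and KDM4D are limited by counting there.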
